A study of Homo sapiens with 12 samples.

Results

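Monomethylation of lysine 9 of histone H3 (H3K9me1) was described on chromosomes 4, 5, 8, 9, 11, 13 and 14. These are chromosomes on which the region lists of 3 of the 4 H3K9me1 ChIP-seq libraries hold regions and the list of control B holds none. Members were the listed regions on these 7 chromosomes: 224728 in control A, 135725 in restricted A and 294300 in restricted B, together 654753 of the 2263982 regions that the 4 lists hold on chromosomes 1 to 22 and X. Chromosome 21 is absent from control B in the same way but is not among the 7. The cells were HCT116, an established human colorectal carcinoma line, at passage 19. Control libraries were labelled 0 hr, and restricted libraries came from cells washed and kept for 24 hr in RPMI-1640 lacking methionine, with serum in both media. The authors' caller set each H3K9me1 library against the input library that shares its time and letter. No library came from cells kept for 24 hr with methionine, so restriction and time cannot be told apart, and only control A stands on the control side here. The labels do not say whether A and B were separate cultures, so the spread between libraries may be technical.

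Methylation of H3K9 uses S-adenosylmethionine, which cells make from methionine. Monomethylated H3K9 is the product of the first methylation of this lysine and a substrate for further methylation to H3K9me2 and H3K9me3. H3K9me1 is commonly found in euchromatin, over transcribed genes and near active regulatory sequence, whereas H3K9me3 marks constitutive heterochromatin and silenced repeats. Large gene-poor stretches, such as those around cadherin and protocadherin genes expressed in neurons, are usually inactive in epithelial cells.

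With all listed regions, the amount of H3K9me1 did not separate the conditions. Regions covered 102.1 Mb of the 1017 Mb of the 7 chromosomes in control A (10.0%), 51.3 Mb in restricted A (5.04%) and 137 Mb in restricted B (13.4%). Control A lay between the restricted libraries. Restricted A held 0.604 times as many regions as control A, its partner by letter and sequencing lane, whereas restricted B, run on the other lane, held 1.31 times as many (exact two-sided permutation test, p = 1; with 1 library against 2 its smallest possible p is 0.33). The caller used 29504449 H3K9me1 reads of control A, 37331386 of restricted A and 33294842 of restricted B, and 26454763, 22328081 and 26540574 reads of their inputs. Restricted A thus had the most ChIP reads, the fewest input reads and the fewest regions; the part of read numbers in the amount listed was not tested.

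Regions were short and weak in all 3 lists. Their median width was 359, 318 and 368 bp in control A, restricted A and restricted B, and their median fold over local background, as given by the authors' caller, was 1.98, 1.85 and 1.83. The share of regions with a −log10 p of at least 2 was 3.97% in control A, 0.629% in restricted A and 0.781% in restricted B. Regions at this level were thus a larger share of the list in control A than in either restricted list. At a −log10 p of at least 1.5, control A held 63407 regions over 30.1 Mb, restricted A 10324 over 3.56 Mb and restricted B 43701 over 17.99 Mb. Among these stronger regions both restricted libraries thus lay below control A, unlike with all regions. To remove the amount listed, all further H3K9me1 values are relative densities: the covered share of a bin, window or chromosome divided by the covered share of the 7 chromosomes in the same library, so that 1 is the average.

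Over whole chromosome lengths, chromosome 13 had the lowest H3K9me1 density in every library, and chromosomes 8 and 11 the highest in control A. Chromosome 13, whose long arm holds wide gene-poor stretches, was at 0.717 in control A, 0.765 in restricted A and 0.818 in restricted B. Gene-rich chromosome 11 was at 1.195, 0.992 and 1.08. Chromosome 11 was thus highest in control A and chromosome 13 lowest there, and both lay nearer to the average in the restricted libraries. The short arms of chromosomes 13 and 14 and an 18.2 Mb gap of chromosome 9 hold no listed region. They count as uncovered in all libraries. Over the bins with a listed region, chromosome 13 was covered at 8.62% in control A, 4.62% in restricted A and 13.2% in restricted B. Chromosome 4 was at 9.09%, 4.59% and 13.4%, so by this measure chromosome 4 was the lowest in restricted A.

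Chromosome 4 was at 0.896 in control A, 0.901 in restricted A and 0.990 in restricted B, so restricted A differed little from control A. Chromosome 9 was at 1.01, 0.938 and 0.948, and chromosome 14 at 0.936, 0.902 and 0.898. Chromosome 5 was at 1.02, 1.01 and 1.06. Chromosome 8 was at 1.19, 1.44 and 1.13, with restricted A far above the others. Both restricted libraries therefore lay above control A on 2 of the 7 chromosomes (4 and 13), below it on 3 (9, 11 and 14) and on either side of it on 2 (5 and 8). Among the 16 chromosomes that the 3 lists hold, 18.8% lay above and 62.5% below by the same rule, and no single chromosome could pass the exact permutation test. With the covered share of the 16 chromosomes together as the divisor, 5 of the 7 lay above and 1 below, so these directions depend on the divisor.

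**Figure D1:**
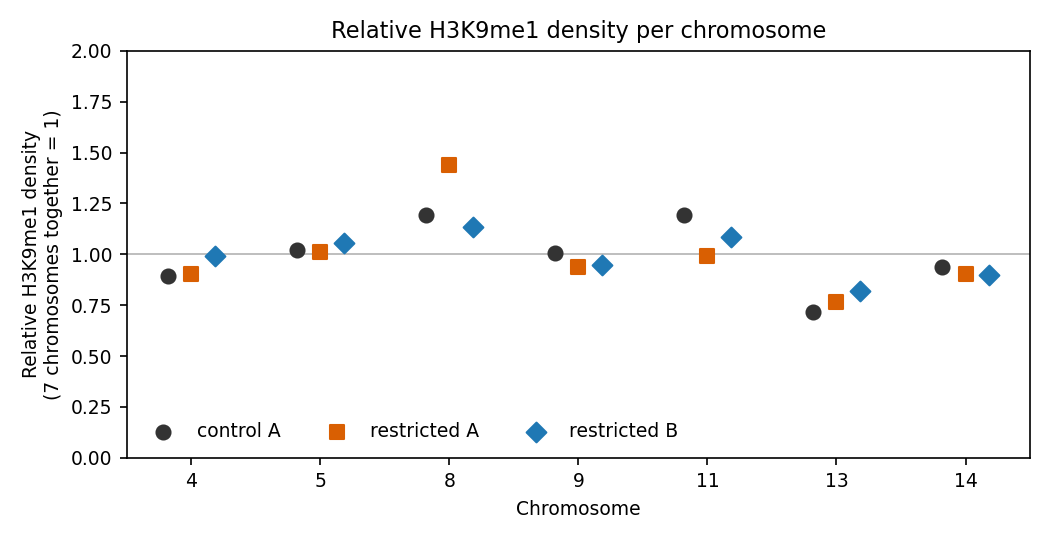
Relative H3K9me1 density (y axis, 7 chromosomes together = 1) of each chromosome (x axis) in control A, restricted A and restricted B, 1 point per library. Chromosome 8 of restricted A stands at 1.44, above all other points, and on chromosomes 11 and 13 the restricted points lie nearer to 1 than control A.

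Chromosome averages hid differences between arms. The short arm of chromosome 5 was at 0.652 in control A, 0.835 in restricted A and 0.869 in restricted B, while its long arm was at 1.18, 1.097 and 1.15. On chromosome 9 the short arm was at 0.861, 0.949 and 0.945, and the long arm at 1.34, 1.16 and 1.18. On chromosomes 5 and 9 the sparser arm was thus higher, and the denser arm lower, in both restricted libraries. The other arms did not all follow this. The sparser short arms of chromosomes 8 (1.15, 1.08 and 1.13) and 11 (1.137, 0.945 and 1.04) were lower in both restricted libraries, as was the long arm of chromosome 11. The short arm of chromosome 4 and the long arm of chromosome 8 had restricted libraries on either side of control A.

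The 1 Mb profile was flatter in both restricted libraries than in control A. Over 958 bins of 1 Mb, 147 bins of control A had a density under 0.2, against 4 in restricted A and 3 in restricted B. At the other end 60, 45 and 0 bins had a density over 2, and 35 of the 45 bins of restricted A lay on chromosome 8. The 90th percentile of the bins was 17.4 times the 10th in control A, 4.20 times in restricted A and 3.01 times in restricted B. The sparse end of the profile thus lay nearer to the average in both restricted libraries, and the densest bins were less dense in restricted B. This holds for relative density. In covered length, restricted A lay below control A in some of the sparse gene-poor windows described below and above it in others.

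The SD over bins of log2(relative density + 0.1) was 1.19 in control A, 0.697 in restricted A and 0.557 in restricted B, a mean of 0.627 ± 0.0987 in the restricted libraries (SD, n = 2; exact two-sided permutation test, p = 0.33, the smallest possible). The SD was lower in both restricted libraries on each of the 7 chromosomes. The gap between control A and the restricted mean was largest on chromosome 11, where the values were 1.37, 0.685 and 0.620. It was smallest on chromosome 4, where they were 0.976, 0.590 and 0.471. On the 8 chromosomes that all 4 lists hold, with densities scaled to those chromosomes, the share of bins under 0.2 was 9.05% and 6.52% in the control libraries A and B and 0.570% and 0.652% in the restricted ones. The control library that is missing from the 7 chromosomes thus lay beside control A there. The densities of a bin nonetheless correlated between libraries. Over the 958 bins, which share libraries and base composition and neighbour each other, Pearson's r of log2(relative density + 0.1) was 0.814 between control A and restricted A, 0.938 between control A and restricted B and 0.863 between the restricted libraries. Spearman's rho was lower, at 0.749, 0.883 and 0.803, and for control A with restricted A it was 0.399 on chromosome 8.

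**Figure D2:**
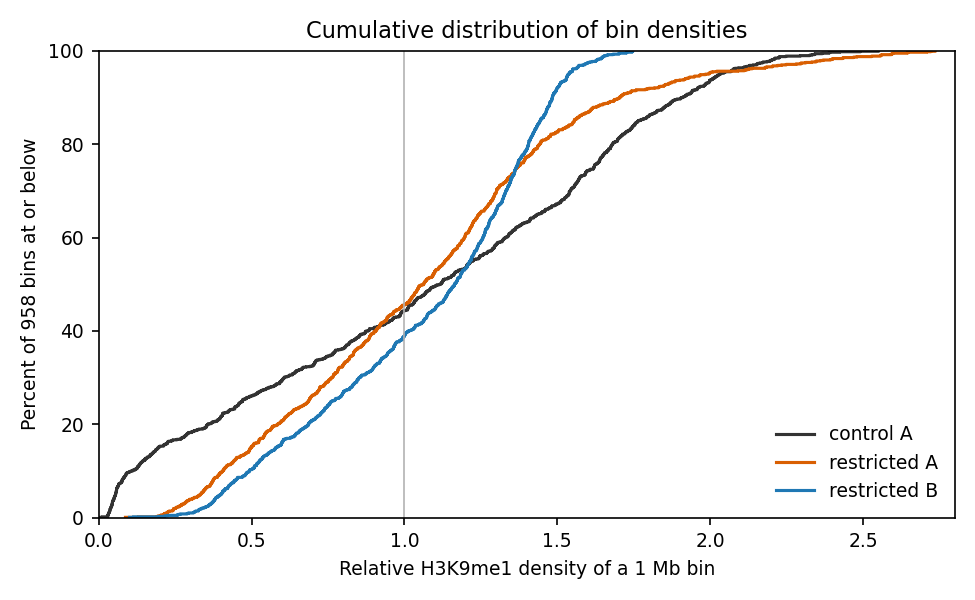
Percent of the 958 bins of 1 Mb (y axis) with a relative H3K9me1 density at or below the value on the x axis, 1 line per library. At 0.2 control A already holds 147 bins and the restricted libraries 4 and 3, and the line of restricted B ends before 2.

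Bins that were nearly empty in control A made up most of the bins that passed the test. The whole table of 2223 bins on the 16 chromosomes was fitted with limma on log2(relative density + 0.1), and 20.6% of it was called at a Benjamini-Hochberg adjusted p under 0.05. On the 7 chromosomes 180 of 958 bins (18.8%) were called higher and 51 (5.32%) lower in the restricted libraries, against 14.6% and 6.03% of the whole table. Both restricted libraries lay above control A in 466 bins (48.6%; 41.3% of all bins fitted) and below it in 309 (32.25%; 38.5% of all bins fitted). The whole table includes these 958 bins. The shares called higher or above control A were larger here than in the whole table, and those lower or below it smaller. This difference was not tested. The 180 higher bins had a median density of 0.0907 in control A, 0.415 in restricted A and 0.494 in restricted B, so at the median they stayed below average in every library. The 51 lower bins had medians of 1.99, 0.911 and 1.26.

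Higher bins were most frequent on chromosome 14 (26 of 89 bins higher) and chromosome 13 (26 of 97 higher and 0 lower), and least on chromosome 4 (19 of 190 higher). The lone control was assumed in this fit to vary like the restricted pair. The robust option gave an infinite prior df (median over bins), so a bin's p rests on the spread pooled over all bins and is very small for 3 libraries. Without that option 139 bins were higher and 18 lower, beside 260 and 54 of all 2223 bins fitted. Chromosome 14 then had 15 higher and 0 lower, and chromosome 13 had 17 higher. By share of their bins called higher, chromosomes 11 and 8 then ranked above both, and chromosome 9 was lowest. The order of the chromosomes given above therefore depends on the robust option. When the 3 profiles were first given the same distribution by quantile normalization, 0 bins passed (28 at an unadjusted p under 0.05). With regions of −log10 p of at least 1.5 alone, 6 bins were higher and 0 lower, beside 17 and 0 of all 2220 bins fitted. The 6 include the short last bin of chromosome 4, which entered the fit only through the restricted libraries.

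The named bins show the same range of levels. At chr5:3000001-4000000 (all coordinates are hg19) H3K9me1 covered 7.05 kb in control A, 46.9 kb in restricted A and 87.7 kb in restricted B, or densities of 0.0703, 0.929 and 0.653. The bin was nearly empty in control A and close to average in restricted A (log2 difference 2.37 ± 0.305, SE; limma adjusted p = 1.18e-11, or 0.00274 without the robust option). At chr8:4000001-5000000, within CSMD1, a very large gene that encodes a synaptic complement regulator, the densities were 0.0447, 0.492 and 0.451. At chr9:8000001-9000000, at PTPRD, a receptor tyrosine phosphatase of neurons, they were 0.0461, 0.394 and 0.517. Both of these gene bins went from almost nothing in control A to at most 0.517 in the restricted libraries.

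The other higher bins named by the rule were chr8:138000001-139000000, chr8:84000001-85000000, chr5:8000001-9000000, chr11:132000001-133000000, chr4:45000001-46000000 and chr8:13000001-14000000, with control A densities of 0.030 to 0.102 and log2 differences of 1.87 to 2.32. The rule also names chr4:191000001-191044254, the short last bin of chromosome 4: control A listed nothing in it, restricted A 5.44 kb and restricted B 8.77 kb. It entered the fit only through the restricted libraries, in which it is high, so it had to differ and no test is given for it, although it is 1 of the 180 higher bins. H3K9me3 peaks covered 2689 bp of this end bin in control A and 9064 bp in restricted A, and none in control B or restricted B.

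Among the lower bins, chr8:142000001-143000000 stood at 2.29 in control A, 0.439 in restricted A and 0.845 in restricted B. Its density fell by 1.75 on the log2 scale (SE 0.248; limma adjusted p = 1.16e-09, or 0.00318 without the robust option), from more than double the average to below it. Its neighbour chr8:143000001-144000000 was at 2.42, 0.768 and 1.01, and chr8:140000001-141000000 at 2.22, 0.619 and 1.24. The distal part of 8q thus held 3 of the 10 lower bins named, restricted A being the lowest of the libraries in each. The other lower bins named were chr5:149000001-150000000, chr11:117000001-118000000, chr9:137000001-138000000, chr4:7000001-8000000, chr11:69000001-70000000, chr11:2000001-3000000 and chr9:124000001-125000000. Control A ranged from 1.56 to 2.39 over these bins, restricted A from 0.411 to 0.873 and restricted B from 0.966 to 1.38. Restricted A was thus below average in all of these, while restricted B stayed close to it or above. Without limma's robust option the bins chr11:69000001-70000000 and chr11:2000001-3000000 were no longer called, at an adjusted p of 0.0665 and 0.0668.

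Bins on one side of control A formed long runs. The longest runs above it were chr13:78000001-95000000 (17 bins, 12 of them called), chr13:61000001-76000000 (15 bins, 4 called) and chr5:17000001-32000000 (15 bins, 13 called). In the last the density was 0.161 in control A, 0.407 in restricted A and 0.453 in restricted B. The longest runs below it were chr9:123000001-140000000 (17 bins, 11 called), chr11:63000001-77000000 (14 bins, 6 called) and chr5:167000001-179000000 (12 bins, 3 called). In the run on chromosome 9 the density was 1.78, 1.11 and 1.15. Without the robust option 7, 1 and 13 bins of the runs above were called, and 4, 3 and 0 of those below. Neighbouring bins are not independent: their density correlated within each library, with r of 0.669 to 0.683 over 946 pairs.

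The longest runs overlap windows set by hand, in whole Mb, around known gene groups. Windows and runs rest on the same libraries, and the windows were set with earlier results of these data known. Their overlap is therefore a description and no independent support. Over 10 gene-dense windows (38.5 Mb) the density was 1.63 in control A, 1.23 in restricted A and 1.18 in restricted B; 9 of the 10 lay below control A in both restricted libraries. Over 7 gene-poor windows (57 Mb) it was 0.295, 0.466 and 0.567, and 6 of the 7 lay above. Over the 4 windows at large neuronal genes reported here it was 0.261, 0.601 and 0.612, and each of these lay above. Of the bins in these windows, 11 of 41 gene-dense bins were called lower and 0 higher. Of the gene-poor bins 33 of 57 were called higher and 0 lower, and of the neuronal-gene bins 7 of 10 higher and 0 lower. Over all 958 bins 18.8% were called higher and 5.32% lower. Without limma's robust option 3 gene-dense bins were called lower, 24 gene-poor bins higher and 7 neuronal-gene bins higher. The ratio of gene-dense to gene-poor density was 5.52 in control A, 2.64 in restricted A and 2.07 in restricted B (exact two-sided permutation test, p = 0.33, the smallest possible).

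Gene-poor windows differed in level and in the number of bins called. The 5p14 window (chr5:19000001-31000000), which holds the type II cadherin genes, calcium-dependent adhesion molecules, had a density of 0.050 in control A, 0.301 in restricted A and 0.355 in restricted B. All 12 of its bins were called higher, with and without the robust option. The SLITRK desert at 13q31 (chr13:82000001-91000000), named for genes of neuronal transmembrane proteins, was at 0.146, 0.349 and 0.474, with 8 of 9 bins called (5 without the robust option). The 13q21 protocadherin desert (chr13:54000001-72000000) was at 0.250, 0.406 and 0.556, with 9 of 18 bins called, and the window around LRFN5 at 14q21 (chr14:41000001-45000000) at 0.183, 0.416 and 0.504, with 4 of 4 (0 without the robust option). On chromosome 4 the windows around PCDH10 (chr4:131000001-138000000) and in the 4q34.3 desert (chr4:179000001-183000000) lay above control A in both restricted libraries, at 0.407, 0.493 and 0.686 and at 0.633, 0.746 and 0.883, but 0 of their 11 bins passed. The window around MYC (chr8:127000001-130000000), which holds few genes besides this growth-promoting transcription factor, was dense in all 3 libraries, at 1.43, 1.47 and 1.14.

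The large neuronal genes described lay on the same side as most of the gene-poor windows. The PTPRD window at 9p24-p23 (chr9:8000001-11000000) was at 0.0490 in control A, 0.283 in restricted A and 0.408 in restricted B, with 3 of 3 bins called higher. The CSMD3 window at 8q23.3 (chr8:113000001-115000000) was at 0.133, 0.958 and 0.637, and the CSMD1 window at 8p23.2 (chr8:2000001-5000000) at 0.289, 0.573 and 0.635, each with 2 bins called. The window of DLG2 at 11q14 (chr11:83000001-85000000), which encodes a synaptic scaffold, had a smaller difference and no called bin, at 0.664, 0.763 and 0.857.

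Gene-dense windows differed in the other direction. The 9q34 end (chr9:130000001-141153193) was at 1.70 in control A, 1.09 in restricted A and 1.07 in restricted B, with 8 of 12 bins called lower (2 without the robust option). The 8q24.3 end (chr8:144000001-146303933) was at 1.69, 1.29 and 0.834, with 2 of 3 bins called (0 without the robust option). The 11q13 band (chr11:63000001-68000000) was at 1.78, 1.37 and 1.21, with 1 of 5 called. The other 7 gene-dense windows had no called bin. The 4p16.3 end (chr4:1-3000000) was at 1.30, 1.18 and 1.11, the 5q35 end (chr5:175000001-180905205) at 1.63, 1.34 and 1.26, and the 13q34 end (chr13:111000001-115108939) at 1.49, 1.08 and 1.28. The 14q11.2-q12 band (chr14:23000001-25000000), densest of the group in control A, was at 1.97, 1.56 and 1.44, and the 13q12 window of the ParaHox genes, homeobox regulators of gut patterning, at 1.55, 1.49 and 1.35. The 5p15.33 window with TERT, the telomerase subunit gene, was at 1.68, 1.15 and 1.28, and the RB1 window at 13q14 was the exception in direction, at 1.21, 1.25 and 1.27. With regions of −log10 p of at least 1.5 alone, the group was at 2.02, 2.43 and 1.41. Restricted A then lay above control A, and the direction held for restricted B alone. The ratio of gene-dense to gene-poor density was then 10.2 in control A, 7.01 in restricted A and 3.11 in restricted B.

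Both imprinted windows lay below control A. The DLK1-MEG3 window at 14q32.2 (chr14:101000001-102000000), which carries a paternally expressed growth regulator and maternally expressed noncoding RNAs, was at 1.70 in control A, 0.587 in restricted A and 1.14 in restricted B. Its single bin was called lower (limma adjusted p = 0.000725), but not without the robust option (adjusted p = 0.0641). The H19-IGF2-KCNQ1 window at 11p15.5 (chr11:1000001-3000000) was at 1.45, 0.794 and 0.963, with 1 of 2 bins called (0 without the robust option). In both the restricted A value was the lowest, so the restricted libraries also differed from each other.

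The 13 windows over tandem gene clusters had no common direction: 4 lay above control A, 7 below and 2 on either side. The apolipoprotein A window at 11q23 (chr11:116000001-117000000), genes of plasma lipid transport, was at 2.49, 1.13 and 1.63, and the cytokine window at 5q31 (chr5:131000001-133000000) at 2.19, 1.37 and 1.51; no bin of either passed the test. The SERPINA window at 14q32 (chr14:94000001-96000000), which holds genes of secreted protease inhibitors, was at 1.91, 0.690 and 1.398, with 1 of 2 bins called lower (0 without the robust option). Restricted A was lowest in all 3, and in none did the restricted libraries reach control A.

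Clusters whose genes are chosen one at a time for expression, or are silent outside sensory cells, lay on both sides. The clustered protocadherin window at 5q31 (chr5:140000001-141000000) was at 0.809, 1.71 and 1.01, and its bin was called higher (limma adjusted p = 0.0279), but not without the robust option (adjusted p = 0.172). The olfactory receptor windows at 14q11.2 (chr14:20000001-21000000), at 0.535, 1.25 and 0.726, and at 11q12.1 (chr11:55000001-57000000), at 0.281, 0.453 and 0.608, each had 1 bin called higher; without the robust option the 14q11.2 call was lost and the 11q12.1 call stayed. The window of olfactory receptor and beta-globin genes at 11p15.4 (chr11:4000001-7000000) differed from these, at 1.62, 1.30 and 1.401 with no bin called. In the protocadherin and 14q11.2 windows restricted A was far above restricted B.

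In the remaining clusters no bin passed the test. The beta-defensin window at 8p23.1 was at 1.69, 1.18 and 1.49, the matrix metalloproteinase window at 11q22 at 1.54, 1.28 and 1.35, and the interferon window at 9p21 at 1.22, 1.15 and 1.21. The albumin and CXCL window at 4q13 was at 1.04, 1.26 and 1.28, the alcohol dehydrogenase window at 4q23 at 1.14, 1.12 and 1.24, and the UGT2B window at 4q13 at 0.712, 0.705 and 0.888. Of the antigen receptor windows, the immunoglobulin heavy chain end of chromosome 14 (chr14:106000001-107289009) was at 0.694, 1.16 and 0.985, with 1 of 2 bins called higher, and the T-cell receptor window at 14q11.2 at 1.49, 1.22 and 1.39.

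**Figure D3:**
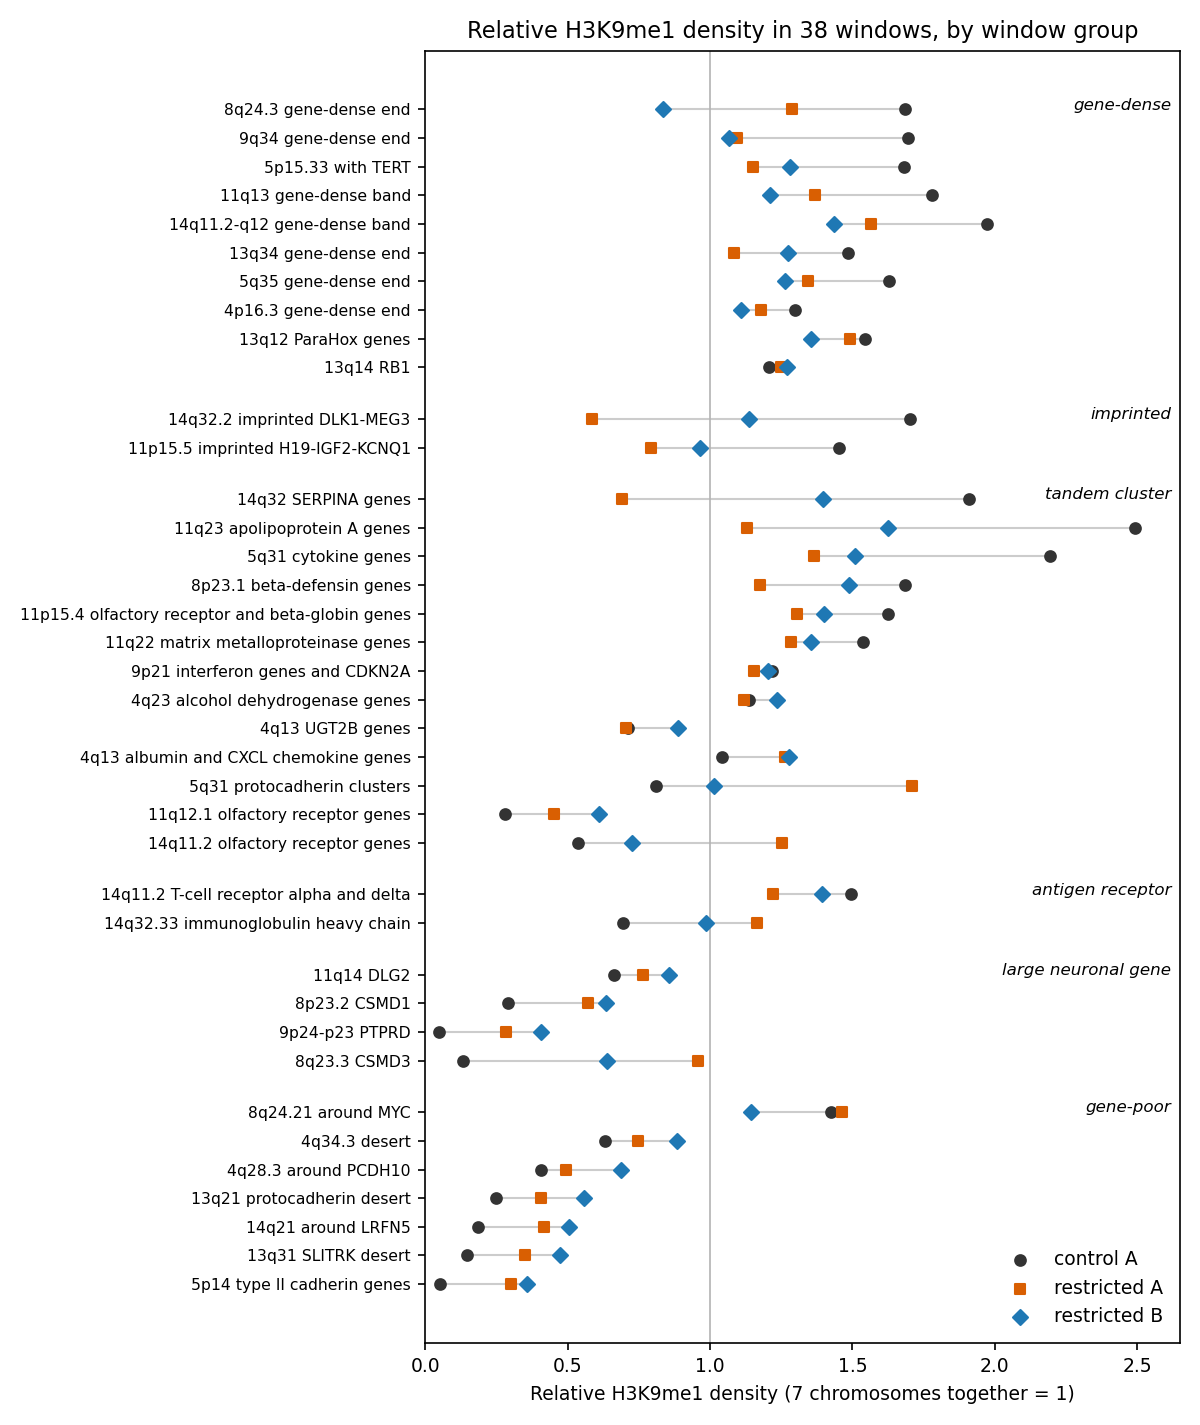
Relative H3K9me1 density (x axis, 7 chromosomes together = 1) of the 38 windows (rows, by group) in control A, restricted A and restricted B, 1 point per library. Control A is the rightmost point in 9 of 10 gene-dense windows and the leftmost in 6 of 7 gene-poor windows.

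Restricted A carried a stretch of chromosome 8 that stood apart from its other chromosomes. Over chr8:67000001-123000000, bounds chosen after the values were seen and given without a test, H3K9me1 covered 10.3% of the sequence in restricted A, against 5.38% of the rest of chromosome 8 and 4.67% of the other 6 chromosomes. Relative densities in the stretch were 1.203 in control A, 2.04 in restricted A and 1.200 in restricted B. Restricted A was the highest library in 50 of the 56 bins of the stretch (89.3%) and in 191 of the other 902 bins (21.2%). Of its 45 bins over 2 on the 7 chromosomes, 34 lay here. Over the 3 bins just before the stretch the median was 0.689 for restricted A against 0.770 for restricted B, and over the 3 just after it was 1.57 against 1.49 (restricted A was the highest library in 2 of the 3 before and in 0 of the 3 after). Since the bounds were chosen on these values, the drop outside them is a description.

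Region strength was much the same in the stretch. The median fold in restricted A was 1.86 inside it and 1.85 on the other 6 chromosomes. The median of pileup divided by fold was 1.02 times that of the other 6 chromosomes. This quotient is a rough stand-in for local background and need not equal the background the caller used. The quotient was 1.17 times that of the other 6 chromosomes in control A and in restricted B. The density of these libraries was raised too, but less than that of restricted A: over the other 6 chromosomes it was 0.968 in control A, 0.926 in restricted A and 0.978 in restricted B. The part of local background in the covered share was not tested. Of the bins in the stretch 17 were called higher and 0 lower (12 and 0 without the robust option). Without it, 163 bins (18.1%) of the 7 chromosomes were higher and 51 (5.65%) lower, and the SD of the log2 profile was 1.19, 0.666 and 0.562 in control A, restricted A and restricted B, so the flatter profiles did not rest on the stretch.

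**Figure D4:**
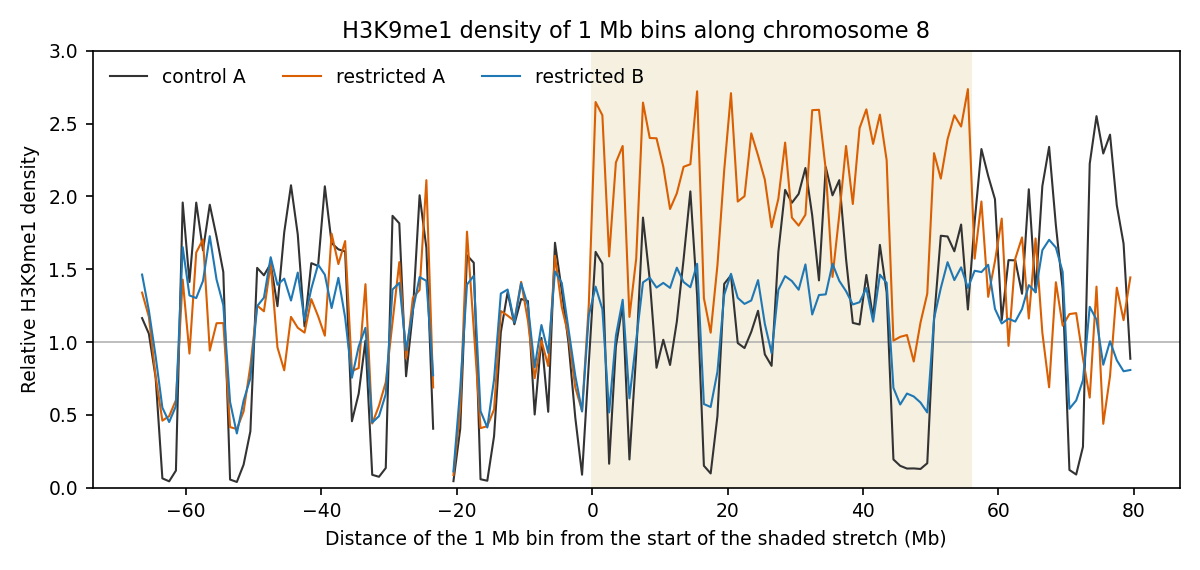
Relative H3K9me1 density (y axis) of 1 Mb bins along chromosome 8, by distance from the start of the stretch described (x axis, Mb; shaded), 1 line per library, with a break at the region-free centromere. Inside the shading restricted A has a median of 2.19, against 1.24 in control A and 1.34 in restricted B.

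A small part of the covered sequence was shared between lists. Of the covered sequence of 2 lists together, 6.64% was shared by control A and restricted A, 11.5% by control A and restricted B and 7.60% by the restricted libraries. On the 8 chromosomes that control B holds too, the same pairs shared 6.85%, 12.2% and 7.78%. Merging overlapping regions of the 3 lists gave 480267 regions, of which 28491 (5.93%) were present in all 3, 114107 in control A alone and 28185 in both restricted lists alone. These shares depend on list length, and the list of restricted A is the shortest. Restricted B held 25.9% of the covered sequence of restricted A and 24.0% of that of control A, so the order of these pairs differs between the measures. Both shares were larger than the 13.4% of the 7 chromosomes that restricted B covered.

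The widest merged regions of all 3 lists were chr11:66185860-66195026 (9167 bp), chr5:139180433-139189332, chr5:38874547-38883360, chr4:48902688-48910670 and chr4:25722055-25728629. In the first, control A held 5 regions over 4.11 kb, restricted A 4 over 5.89 kb and restricted B 1 over 8.99 kb. The widest of control A alone were chr5:141648147-141651922 (3776 bp), chr5:135325928-135329621, chr14:104825557-104829040, chr5:153358804-153362046 and chr5:112770815-112773930. The widest of both restricted lists alone were chr14:105325096-105330030 (4935 bp), chr13:114428100-114432707, chr9:117289719-117294212, chr8:145825639-145829493 and chr4:1889872-1893558. All of these 15 regions lay in bins with a density over 1 in control A, so even the regions held by the restricted lists alone were in sequence that control A covered densely.

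The strongest H3K9me1 regions of restricted A lay at H3K9me3 peaks. Its 3 regions with the highest −log10 p lay side by side beside the centromere of chromosome 8, at chr8:43092868-43093939, chr8:43094760-43095273 and chr8:43095816-43097091, with −log10 p of 7.57, 9.29 and 10.0 and fold of 3.49, 2.84 and 5.14. Control A listed no H3K9me1 over them, restricted B overlapped each in part, and H3K9me3 peaks of all 4 libraries overlapped each. The strongest regions of control A were chr5:71951598-71951775, chr8:21579985-21580100 and chr11:128800647-128800809, with −log10 p of 4.73, 4.37 and 4.23, and no H3K9me3 peak overlapped them. Those of restricted B were chr8:43802045-43802146, chr5:46326691-46327028 and chr4:140962808-140962948, with −log10 p of 4.89, 4.16 and 4.09. No H3K9me3 peak of either restricted library overlapped them, and 1 of the 3 held 252 bp of a control B peak.

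A larger share of the H3K9me3 peaks was overlapped by H3K9me1 in both restricted libraries than in control A. This overlap was examined after the regions above were seen, and H3K9me3 took no part in choosing the 7 chromosomes. Of the H3K9me3 peaks on the 7 chromosomes, 90 of 428 (21.03%; 95% Wilson interval 17.4% to 25.1%) overlapped an H3K9me1 region of the same time and letter in control A, 401 of 543 (73.8%; 70.0% to 77.4%) in restricted A and 143 of 218 (65.6%; 59.1% to 71.6%) in restricted B. The intervals cover counting error only. By length, H3K9me1 covered 6.93% of the H3K9me3 sequence in control A, 41.01% in restricted A and 31.7% in restricted B, beside 10.0%, 5.04% and 13.4% of the 7 chromosomes. H3K9me3 sequence thus held less H3K9me1 than average in control A and more than average in both restricted libraries, also in restricted A, which listed the least H3K9me1 of all.

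The 2 marks of one time and letter were called against the same input, so the lists were also crossed. The H3K9me1 list of control A overlapped 14.4% of the H3K9me3 peaks of control B, 17.5% of those of restricted A and 17.0% of those of restricted B. The list of restricted A overlapped 44.6% of the peaks of control A, 38.3% of control B and 42.2% of restricted B, and that of restricted B overlapped 54.7%, 58.0% and 58.6% of the peaks of control A, control B and restricted A. Control A was the lowest of the 3 H3K9me1 lists for each of the 4 H3K9me3 lists. Each H3K9me1 list nonetheless overlapped the largest share of peaks where the input was shared. These shares were 21.03% in control A, 73.8% in restricted A and 65.6% in restricted B. The part of the shared input in the overlap was not tested. On the 8 chromosomes that control B holds, its H3K9me1 overlapped 24.17% to 32.1% of the peaks of the 4 lists, control A 13.4% to 22.4%, restricted A 40.3% to 71.02% and restricted B 49.1% to 69.9%. Both control lists lay below both restricted lists for each H3K9me3 list there (exact two-sided permutation test, p = 0.33 for each, the smallest that 2 against 2 can give).

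The difference held within the bins around the peaks. In the bins that held the peaks of each library, H3K9me1 covered 10.1% of the sequence outside the peaks in control A, 5.54% in restricted A and 13.1% in restricted B. The cover inside the peaks was therefore 0.689 times that around them in control A, 7.41 times in restricted A and 2.41 times in restricted B. These pairs of lists share an input. With the peaks of the other H3K9me3 lists, the H3K9me1 list of restricted A was at 2.39 to 3.65 times. That of restricted B was at 1.56 to 2.00 times and that of control A at 0.384 to 0.781 times. The difference between the libraries was also present on each chromosome. For control A the share of peaks overlapped was 10.8% to 29.4% over the 7 chromosomes. It was 63.5% to 82.6% for restricted A and 50% to 76.7% for restricted B. Among the peaks over 5 Mb from the centromere gap (321, 428 and 143), 19.0%, 78.5% and 67.8% were overlapped. With H3K9me1 regions of −log10 p of at least 1.5 alone the shares were 7.94%, 30.2% and 24.8%, lower in all 3 but in the same order.

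**Figure D5:**
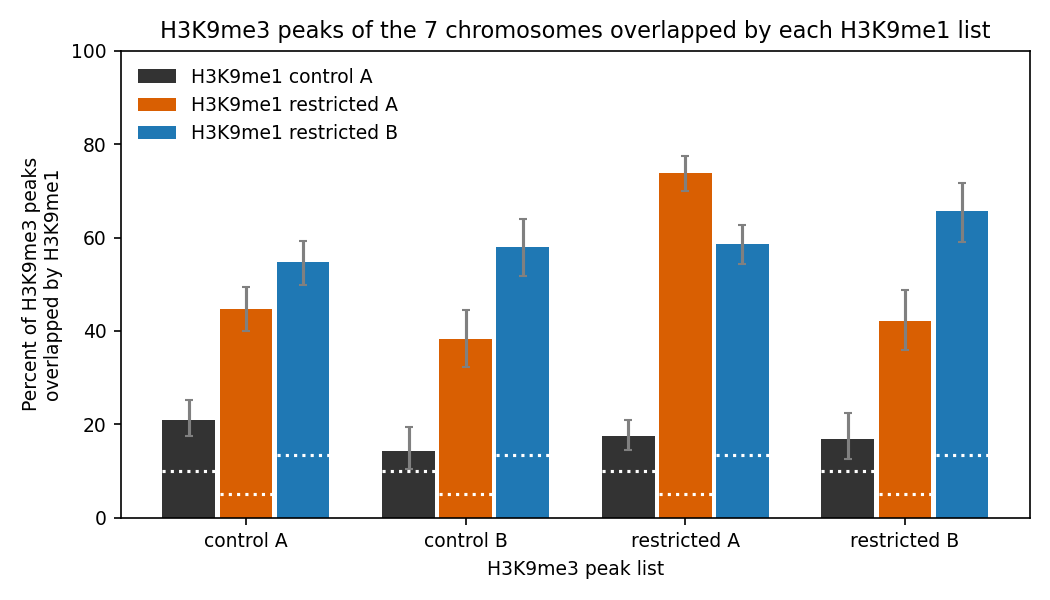
Percent of the H3K9me3 peaks of the 7 chromosomes (y axis) in each H3K9me3 list (x axis) that overlap a region of the H3K9me1 list of control A, restricted A or restricted B (bars, with 95% Wilson intervals); dotted white lines mark the share of the 7 chromosomes that the H3K9me1 list covers. The control A bars, at 14.4% to 21.03%, are the lowest in each of the 4 sets.

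H3K9me3 itself was slightly sparser over the 7 chromosomes together in the restricted libraries, but not on each of them. Its covered share of the 7 chromosomes, relative to that of chromosomes 1 to 22 and X, was 0.879 in both control libraries and 0.820 and 0.821 in restricted A and B (difference -0.058; exact two-sided permutation test, p = 0.33, the smallest possible). The groups did not overlap, though the lists were of unequal size, with 428 and 243 control peaks and 543 and 218 restricted peaks. Single chromosomes varied more than this sum. Chromosome 4 was at 1.26 and 1.28 in control A and B and at 1.02 and 0.555 in restricted A and B. Chromosome 5 was lower too, at 0.782 and 0.748 against 0.599 and 0.644. Chromosomes 9 and 11 were higher in both restricted libraries, at 0.616 and 0.415 against 0.645 and 0.708 and at 0.609 and 0.607 against 0.659 and 0.802. Chromosome 13 was at 0.172 and 0.114 against 0.339 and 0.170. Chromosome 8 had the highest H3K9me3 density of the 7 in every library, at 1.598 and 1.70 in the controls and 1.45 and 1.99 in the restricted libraries.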

How the data were processed

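ChIP-seq region lists of HCT116 cells were used: H3K9me1 of control A, restricted A and restricted B, control B on the chromosomes it lists, and H3K9me3 of all 4 libraries. The submitters' processing notes name hg19, MACS2 2.1.1.20160309, Bowtie2 2.1.0 and SAMtools 1.5. Per the file headers, MACS2 called broad regions per library; H3K9me1 had p cutoffs of 0.0001 (strong) and 0.1 (weak) and kept at most 1 read per position. The H3K9me3 lists were called by q with duplicates kept, per the file headers, so the marks' lists differ in kind. The deposited pileup is a signal (read coverage), the deposited fold is a ratio over local background, and significance was deposited as −log10 p and q; all are averages over a region by the authors' caller, and the weak cutoff admits many chance regions.

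Covered lengths, relative densities (chromosome length: highest region end in any list), overlaps (at least 1 bp) and exact permutation tests were computed with Python 3.11.15. Bins of 1 Mb with a region in at least 2 libraries were fitted with limma 3.58.1 (R 4.3.3; trend and robust) on log2(relative density + 0.1), which understates changes of sparse bins. On simulated data with 2223 bins, 58% of 200 bins given a log2 change of 1 were called (19 false calls) and 98% of those given 2 (11 false), with 12 false calls when nothing changed. The simulated bins were independent of each other and had the same spread in the control and restricted libraries. The number of false calls among the real bins therefore cannot be told from them. The members, windows and tests were chosen with earlier results of these data known. Named were all 7 chromosomes and 38 windows (1 further window, in the group of large neuronal genes, is not reported here), 10 bins in each direction by smallest adjusted p, the 3 longest runs per direction, the 5 widest merged regions per pattern and the 3 strongest regions per library. Windows stand in for gene groups, since no hg19 annotation was used; regions are not assigned to exons or introns, and no sequence is printed.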

Additional observations from a re-analysis of the deposited data

How the results depend on the processing

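Alternatives were stricter thresholds, equal numbers of regions, other pseudocounts, bin sizes, scalings and filters, and leaving out each restricted library; those on the robust option, on the stretch of chromosome 8 and on the overlap of the marks were chosen after seeing the data. Limits: the single control library decides the side of every H3K9me1 value and leaving it out leaves no comparison; depth limits what the weak regions can show, and with 1 control and 1 restricted library bins have no test. No paired analysis was possible because control A shares its letter with 1 restricted library only; for H3K9me3 the letter as a replicate block gave a difference of -0.058.

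With regions of −log10 p of at least 1.5, the ratio of region numbers (restricted mean over control A) was 0.426, 9 windows lay lower, 6 bins were called higher and 0 lower, the shared sequence was 0.990%, 3.36% and 1.58% for control A with restricted A, control A with restricted B and the restricted pair, and the difference in H3K9me3 peaks overlapped was 19.5 percentage points, against 48.7 with all regions. With equal numbers of regions 272 bins were higher and 14 lower (516 and 59 of all 2223 fitted), and the difference in profile SD was -0.677, against -0.560. It was -0.672 and -0.277 with pseudocounts of 0.05 and 0.5, and -0.333 with 5 Mb bins. Bins called higher and lower numbered 321 and 15 of 1906 at 500 kb (589 and 79 of all 4418 fitted). At 5 Mb they numbered 4 and 1 of 199 (7 and 4 of all 461 fitted). They numbered 0 and 0 without scaling (0 at an unadjusted p under 0.05) and 0 and 0 after quantile normalization. Without the robust option 18 were lower. Scaled to all 16 chromosomes, 5 chromosomes lay higher and 1 lower. Requiring an overlap of 50% of the shorter region, the shares of regions overlapped for the same pairs were 13.6%, 30.6% and 30.5%, against 18.4%, 40.6% and 40.4%. The H3K9me3 difference was -0.098 at a −log10 q of at least 2. The cause of these shifts was not tested.

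Leaving out restricted B or restricted A gave 0.604 and 1.31 times the regions and 0.502 and 1.34 times the covered length of control A, so the direction rested on which library was kept. Chromosomes above control A were then 3 and 3 and those below 4 and 4, windows above 17 and 18 and below 21 and 20, the difference in SD -0.490 and -0.630, and the difference in H3K9me3 peaks overlapped 52.8 and 44.6 percentage points. The H3K9me3 density difference without 1 library was -0.059 to -0.058. Median log2 differences of all bins on the 7 chromosomes were 0.09 in the main setting, -0.16 without scaling, 0.26 with −log10 p of at least 1.5 and 0.25 with equal numbers. Of the alternatives for the 20 named bins, 71 gave the same direction without passing the threshold and 0 reversed it. All 20 bins failed the threshold without scaling and after quantile normalization, and 18 failed it with −log10 p of at least 1.5. The bins left there were chr5:3000001-4000000 and the short last bin of chromosome 4. That last bin had to differ, so its passing carries no weight. The bins were picked as the most extreme in these same libraries, so the lack of reversals is no independent support.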
